A study of Drosophila melanogaster with 2 samples.

Results

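Intergenic Taf1 peaks were the peaks whose summit lay outside every annotated gene body and over 500 bp from the transcription start site (TSS) of every protein-coding gene. They numbered 283 of the 2658 peaks on the chromosome arms of Drosophila melanogaster, or 10.6% (95% exact Clopper-Pearson interval 9.50 to 11.9%, counting error only). The other peaks were 1405 promoter peaks, with a summit within 500 bp of a protein-coding TSS, and 970 intragenic peaks, with a summit inside a gene and farther from such a TSS. The rule used position alone, so neither the strength of a peak nor its sequence beyond that position chose the members within the list used. That list was itself thresholded by the authors, so the share holds for it only. In their longer relaxed pooled list, 12729 of 60203 peaks (21.1%) met the same rule. All 283 summits also lay outside the gene bodies of the RefSeq annotation.

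The peaks came from chromatin immunoprecipitation with sequencing (ChIP-seq) on whole embryos collected 0 to 24 h after laying, in 2 biological replicates that formed 1 group. Both replicates carried a transgene insertion, strain Taf1-GFP, that makes a fusion of Taf1 with enhanced green fluorescent protein (eGFP), and an antibody against GFP was used for the immunoprecipitation. The labels do not name the promoter that drives the fusion. Each library mixed all embryonic tissues and stages, so binding in fewer cells and weaker binding per cell cannot be told apart. No untagged sample was analysed here, and with 1 group no condition could be compared.

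Taf1 belongs to TFIID, which recognises core promoters and starts assembly of the RNA polymerase II preinitiation complex, and it is the biggest of the TFIID proteins. TFIID binds through the TATA-binding protein, which contacts the TATA box, and through Taf subunits that contact the Initiator and downstream elements. Sequence between genes can hold distal enhancers, insulators bound by factors such as CTCF and Su(Hw), Polycomb response elements, and the starts of transcripts that an annotation lacks.

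The strongest intergenic summits on arms 2L, 3L, 3R and X with and without the letters TATAAA are shown first, because this was the core promoter motif whose share exceeded that of comparable intergenic sequence by most. Each sequence holds the summit and 100 bases on each side of it, on the plus strand of Release 6 (dm6), from RefSeq, and the capitals mark TATAAA or its reverse complement. Summits with a match lay upstream of foxo, of eEF1gamma and of chinmo.
foxo chr3R:14053479-14053679 (+): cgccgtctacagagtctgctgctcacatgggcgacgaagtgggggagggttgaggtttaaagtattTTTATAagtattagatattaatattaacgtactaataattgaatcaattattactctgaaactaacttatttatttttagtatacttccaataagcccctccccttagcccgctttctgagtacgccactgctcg
eEF1gamma chr3R:29214336-29214536 (+): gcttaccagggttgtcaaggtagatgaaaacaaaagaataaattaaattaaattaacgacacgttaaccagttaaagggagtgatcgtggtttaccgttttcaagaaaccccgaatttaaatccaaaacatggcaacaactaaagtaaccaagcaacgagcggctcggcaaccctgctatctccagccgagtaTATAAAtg
chinmo chr2L:1638690-1638890 (+): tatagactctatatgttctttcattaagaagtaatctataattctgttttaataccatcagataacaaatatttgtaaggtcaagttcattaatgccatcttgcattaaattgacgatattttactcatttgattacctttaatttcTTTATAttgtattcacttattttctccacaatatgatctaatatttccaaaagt

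Summits without a match lay upstream of tara and of chinmo.
tara chr3R:16222371-16222571 (+): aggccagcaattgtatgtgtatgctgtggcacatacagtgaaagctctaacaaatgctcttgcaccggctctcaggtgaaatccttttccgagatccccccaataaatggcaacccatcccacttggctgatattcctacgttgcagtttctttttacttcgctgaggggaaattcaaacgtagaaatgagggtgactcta
chinmo chr2L:1632711-1632911 (+): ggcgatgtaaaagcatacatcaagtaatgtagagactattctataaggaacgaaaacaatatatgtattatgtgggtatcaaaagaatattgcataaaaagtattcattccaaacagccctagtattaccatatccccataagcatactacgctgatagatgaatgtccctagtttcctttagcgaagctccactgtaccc

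The foxo and chinmo matches were read on the minus strand, so the capitals there show the reverse complement. In the sequence near eEF1gamma the match stood close to the right end of the window, 33 bp upstream of the annotated start of lncRNA:CR31044 and on its strand. The window at the chinmo summit with a match had 24.4% G+C, against 36.3% at the chinmo summit without one and 45.8% at tara.

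A second set of letters, AGGTGGCG, was the most enriched run of 8 letters at intergenic summits and is part of the consensus described for the fly insulator factor CTCF. The 4 strongest members with it on the same arms are printed over 60 bases, on the strand on which the letters read in this direction, with the letters in capitals.
CG10651 chr2L:20121088-20121147 (+): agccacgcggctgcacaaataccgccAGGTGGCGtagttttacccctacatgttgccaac
nej chrX:9687847-9687906 (-): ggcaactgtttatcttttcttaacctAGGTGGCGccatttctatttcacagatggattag
soti chr3R:14391389-14391448 (-): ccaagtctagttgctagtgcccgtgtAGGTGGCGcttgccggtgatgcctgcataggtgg
jp chr2L:9567459-9567518 (-): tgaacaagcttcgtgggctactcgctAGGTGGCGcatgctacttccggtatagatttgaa

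The letters were followed by a C in the printed sequences of nej, soti and jp and by a T in that of CG10651. The flanking bases otherwise differed from one member to the next. These letters were chosen after their counts were seen.

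The signal of a peak, an enrichment value from the authors' peak calling without a stated scale, ran from 2.02 to 604 at intergenic peaks, with a median of 83.8 and quartiles of 64.3 and 122.6. The median was 95.0 at promoter peaks and 86.7 at intragenic peaks. On the log2 scale, the median of intergenic peaks differed from that of all other peaks (91.7) by -0.13. The same difference was -0.14 in replicate 1 and -0.10 in replicate 2, measured at the same peaks in each replicate's relaxed list. The direction was thus the same in both replicates. The difference was smaller than the spread of single peaks between replicates, whose log2 ratio had an SD of 0.65 at intergenic peaks. That SD describes single peaks and does not measure the error of a median.

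Intergenic summits made up 7.52% of the 665 strongest of all peaks (50 peaks), and 12.5% of the 665 weakest (83 peaks). The 2 bands of 664 peaks in between held 70 and 80. The 95% exact intervals were 5.63 to 9.79% in the strongest band and 10.1 to 15.2% in the weakest. They hold counting error only and treat peaks as independent, which neighbouring peaks are not, so they are no test. The members were unevenly placed among the arms. Arm 2L held 71, or 10.3 per Mb of sequence meeting the rule, 3L held 74 (8.12 per Mb), X held 38 (7.10), 2R held 51 (6.71), 3R held 48 (6.14), chromosome 4 held 1 and Y none. The 71 on 2L include 10 in the group upstream of chinmo. Peaks of any class numbered 507 on 2L, 552 on 3L, 500 on X, 509 on 2R and 583 on 3R. Chromosome 4 held only 7 peaks of any class and Y 0, so the low counts there are not particular to intergenic peaks.

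The signals of the 268 members that had a match in both relaxed lists correlated between the replicates, with a Spearman's rho of 0.56 and a Pearson's r of 0.69 on the log2 scale. These describe peaks that share 2 libraries and were selected from their pooled reads, and genomic regions are not independent replicates. The same rho was 0.65 over 2237 other peaks. The median log2 ratio of replicate 2 over replicate 1 was 0.21 (range -1.89 to 2.43), and 175 of the 268 ratios were above 0. At the other peaks the median was 0.15, so replicate 2 had the higher values in both sets.

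**Figure D1:**
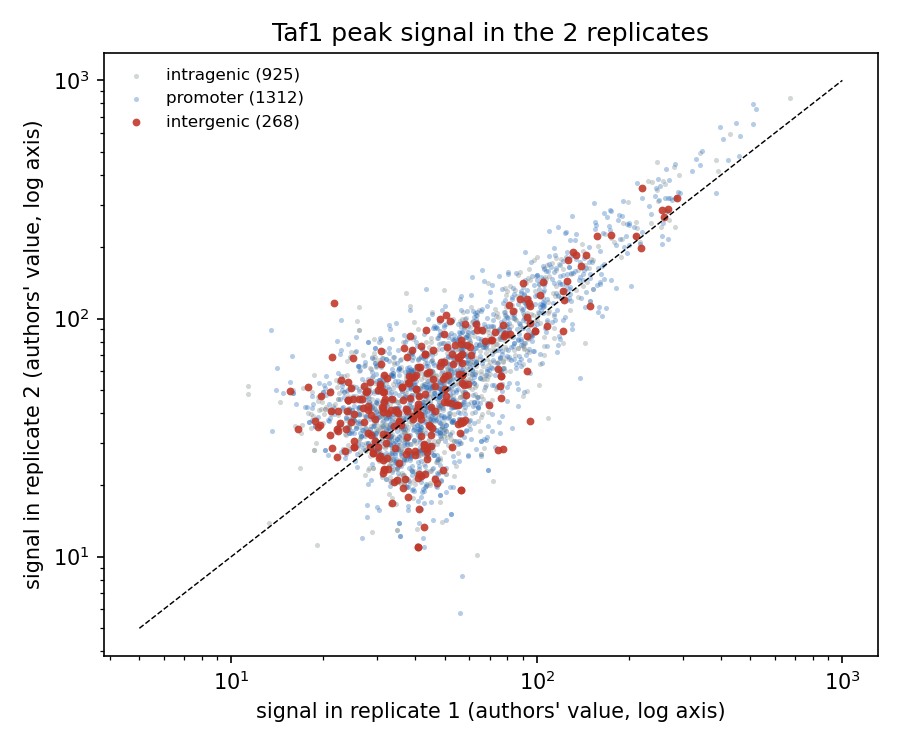
Signal of each Taf1 peak in replicate 1 (x axis) and replicate 2 (y axis), both as the authors' values on log axes, for peaks with a match in both relaxed lists, with the dashed line marking equal values. The 268 intergenic peaks lie in the same cloud as the others, with the strongest near the line and the widest scatter among weak peaks.

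Of the 283 members, 114 (40.3%, interval 34.5 to 46.3%) overlapped a thresholded peak of replicate 1, where 48.3% of all arm peaks did. In replicate 2 it was 198 (70.0%, 64.3 to 75.2%), beside 69.4% of all arm peaks. Both thresholded lists held 96 members (33.9%, 28.4 to 39.8%), beside 40.5% of all arm peaks and 41.3% (39.3 to 43.3%) of those that were not intergenic. The share in both lists was 43.4% for promoter peaks and 38.2% for intragenic peaks, and the intervals of intergenic and intragenic peaks overlapped.

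The thresholded list of replicate 2 alone held 102 members and that of replicate 1 alone 18, while 67 (23.7%) were in neither. Only 1 member had no match in either relaxed replicate list. The replicate 2 list was also the longer, with 1988 peaks against 1281. The conservative pooled list held 207 members (73.1%), where 77.7% of all arm peaks were in it. All 30 of the strongest members and 54 of the 60 strongest were in both replicate lists. The pooled signal comes from the same 2 libraries as those lists, so this is not independent support. Other peaks of like strength were not set beside them.

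The strongest member had a summit on 2R at 13035350, in the 36783 bp between the ends of Su(z)2, a Polycomb group gene, and CG13323. Its signal was 604 in the pooled list, 287 in replicate 1 and 321 in replicate 2, and it ranked 35 of all 2658 peaks. Psc, which lies beside Su(z)2 and encodes a RING finger subunit of Polycomb repressive complex 1, had a member 4223 bp upstream of its TSS (2R at 12985217), with 546 pooled, 257 in replicate 1 and 286 in replicate 2. That summit was also 150 bp upstream of the annotated start of lncRNA:CR44339. Between the 2 summits, no thresholded Taf1 peak was listed.

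Upstream of tara, a gene that interacts genetically with the trithorax group, a member at 3R 16222471 had a signal of 572, with 222 in replicate 1 and 353 in replicate 2. It lay 3180 bp from the TSS. At foxo, which encodes the forkhead transcription factor restrained by insulin signalling, a member 3366 bp upstream of the TSS (3R at 14053579) had 555 pooled, 269 in replicate 1 and 288 in replicate 2. The foxo values were close in the replicates, while the tara value was higher in replicate 2.

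The member assigned to eEF1gamma, which encodes a subunit of a translation elongation factor, lay 5736 bp upstream of that gene (3R at 29214436) and 126 bp upstream of the start of lncRNA:CR31044. Its signal was 519.6 pooled, 262 in replicate 1 and 267 in replicate 2. CycB, the mitotic cyclin B gene, was the nearest gene of a member at 2R 22802948 with 380.4 pooled, 157 in replicate 1 and 221 in replicate 2. That summit lay 3355 bp downstream of the nearest CycB start, past the end of the gene.

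The rest of the 20 strongest had pooled signals from 231 to 428.7. They were nearest to CG13898, CG7484, sp3, stck, Ttc30, tal-1A, DNAlig3, CG6163, Hex-A and CG9498, each with 1 member, and to chinmo with 4. Stck encodes a focal adhesion protein, Ttc30 an intraflagellar transport protein, DNAlig3 a DNA ligase and Hex-A a hexokinase, and tal-1A encodes one of the short tarsal-less peptides. All 20 were in both replicate lists. Replicate 2 was the higher at all but 3 of them, which were those of DNAlig3 (149 in replicate 1, 112 in replicate 2) and the chinmo summits at 2L 1643462 and 1634284.

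The largest group of members lay upstream of chinmo, which encodes a BTB zinc finger protein that sets temporal identity in neurons. On 2L, 10 summits fell within 21532 bp, between lncRNA:CR44603 and chinmo, each within 5 kb of the next. The strongest, 18447 bp upstream of the chinmo TSS, had a signal of 428.7 pooled, 212 in replicate 1 and 222 in replicate 2. The summit 7796 bp upstream had 415.6 pooled, 219.7 in replicate 1 and 197 in replicate 2.

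The summit 12468 bp upstream of chinmo had 334 pooled, 145 in replicate 1 and 185 in replicate 2, and that 16974 bp upstream had 243 pooled, 123 and 119. The other 6 reached at most 137.9, and the weakest overlapped a stronger peak 1536 bp from the TSS. The 4 strong summits stood apart from the rest in both replicates, since their lowest value was 119 and the highest of the other 6 was 80.5. In the group, 7 of 10 members overlapped thresholded peaks of both replicates. The summits 22867 and 21530 bp upstream of chinmo were nearer to the TSS of RFeSP, at 14231 and 15568 bp.

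**Figure D2:**
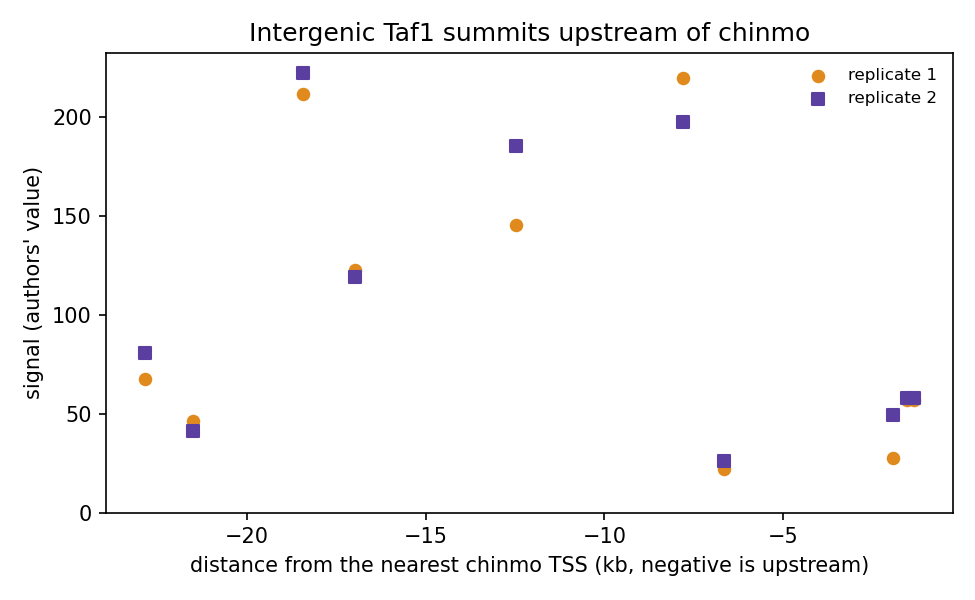
Signal in replicate 1 (circles) and replicate 2 (squares) of the 10 intergenic summits upstream of chinmo, against distance from the nearest chinmo TSS in kb, with negative values upstream. The 4 summits from 18447 to 7796 bp upstream stand above the others in both replicates, and the 2 summits nearest the TSS share 1 match in each replicate.

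At 5 kb, the 283 members formed 227 loci, and 92 members (32.5%, 27.1 to 38.3%) had another member within that distance. Any other peak lay within 5 kb of 125 members (44.2%), beside 40.9% of promoter peaks and 50.4% of intragenic peaks. Loci with 3 or more members numbered 9 and held 38 members. Besides chinmo, they included RYBP, which encodes a Polycomb-associated protein, with 5 summits over 4594 bp and signals of 28.7 to 207. The scyl locus, whose gene encodes an inhibitor of TOR signalling, had 4 summits at 12.5 to 112, and noc, a zinc finger gene, had 3 at 55.1 to 162.

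The other groups lay near CG1888 and Or45b (4 members), Reg-2, CG43245, CG7560 and plh (3 each). No member of the CG1888, noc, scyl or plh groups was in both replicate lists, whereas all 3 in the CG43245 group were. In all, 16 members overlapped a stronger peak, and such a member took the same replicate match as its neighbour where both overlapped it. At plh 2 of the 3 members overlapped a stronger one, with signals of 3.90 and 2.02, the latter the lowest of all members. The 283 members had 221 distinct nearest protein-coding genes, of which 183 had 1 member, 27 had 2 and 11 had 3 or more.

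Intergenic summits lay closer to genes than intergenic sequence did as a whole. The distance to the nearest protein-coding TSS had a median of 3130 bp and ran from 506 to 126305 bp, while the 196068 non-overlapping windows of the same length as those above whose centre met the same rule had a median of 9387 bp. Within 2 kb lay 106 members (37.5%, 31.8 to 43.4%), against 14.1% of windows. Beyond 10 kb lay 51 members (18.0%, 13.7 to 23%), against 48.3% of windows. The windows covered all sequence meeting the rule, and whether reads could be placed there was not tested.

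**Figure D3:**
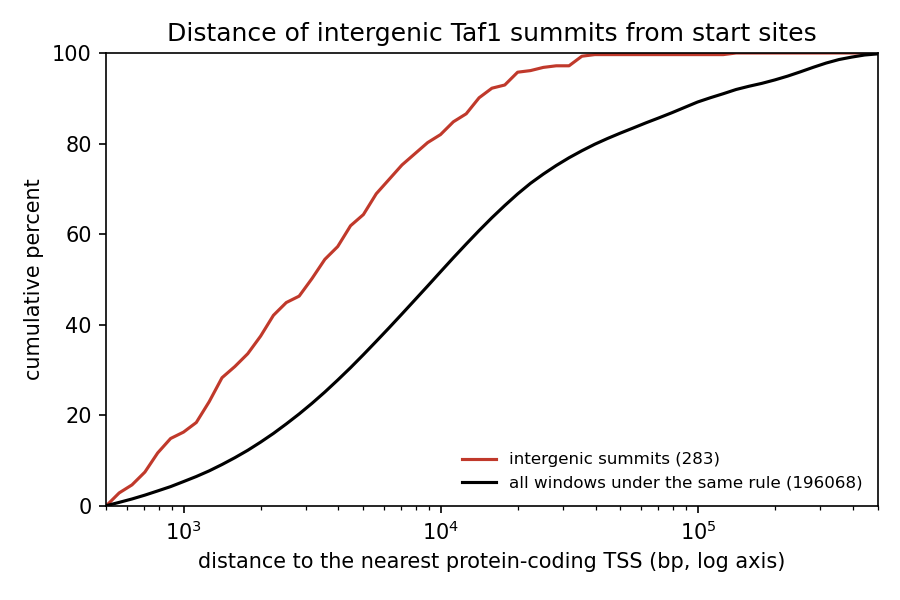
Cumulative percent of the 283 intergenic summits (red) and of the 196068 windows under the same rule (black) against distance to the nearest protein-coding TSS in bp, on a log axis. The red curve lies to the left of the black one, with medians of 3130 and 9387 bp.

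The median signal differed little with distance, at 83.4 for the 106 members up to 2 kb from a TSS and 87.0 for the 51 beyond 10 kb. The shares in both replicate lists were 37.7% and 37.3%. Among all members 51 of 283 (18.0%) lay beyond 10 kb, and among the 60 strongest 16 did, several of them in the group upstream of chinmo. No interval was set on that count, so whether far summits were more frequent among the strongest was not tested. Outside the chinmo group the 16 included a summit 22694 bp from CG13898 (393 pooled, 175 in replicate 1, 223 in replicate 2). Others were 22971 bp upstream of Ttc30 (299, 126 and 176) and 12566 bp upstream of tal-1A (271, 125 and 143).

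Members lay upstream of the nearest TSS in 186 cases (65.7%, 59.9 to 71.2%), beside 59.2% of windows. Between divergent genes, whose starts face the same gap, lay 99 members (35%, 29.4 to 40.9%), beside 22.5% of windows. Tandem gaps held 45.9% of members and 51.2% of windows, and convergent gaps 19.1% and 21.6%. The gap between the flanking genes of any kind had a median of 6914 bp and ran from 284 to 245765 bp. An annotated transposable element held 1 member, where 10.5% of windows lay in one.

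The member just inside the 500 bp limit, at 506 bp from CG42808, had a signal of 64.0, with 35.3 in replicate 1 and 24.8 in replicate 2. The peak just outside it, at 499 bp from CG17896 on X, had 612, with 252 and 360.1. The 758 summits that lay outside gene bodies but within 500 bp of a TSS had a median signal of 96.8, against 83.8 for the members.

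The nearest gene had a Taf1 summit of its own, within 500 bp of a start, for 49 members (17.3%, 13.1 to 22.2%). Over all 13968 protein-coding genes, 1850 or 13.2% had such a summit, a share inside that interval. Counted by gene, it was 35 of the 221 distinct nearest genes (15.8%, 11.3 to 21.3%), so their share did not stand apart from that of all genes. The share was 3.91% of the windows, which count each gene by the length of the sequence around it, and 28.7% of intragenic peaks. The member was stronger than the promoter summit in 18 of the 49. At eEF1gamma the promoter summit had 145, against 519.6 at the member, and at Myc, the growth regulator, the promoter summit had 67.1, against 124 at a member 17808 bp upstream.

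At Atf3, which encodes a stress-related bZIP factor, the order was the other way. The promoter summit had 459, and the member 1928 bp upstream had 224, with 90.1 in replicate 1 and 141 in replicate 2. At Hex-A both were close, at 256 and 250.05.

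Starts of annotated noncoding genes were not used by the rule, and 26 members (9.19%, 6.09 to 13.2%) lay within 500 bp of one, against 2.14% of windows. Among windows up to 10 kb from a protein-coding TSS, off Y and outside transposable elements, the share was 3.03%. For 19 of the 26 members the start was that of a long noncoding RNA, for 4 of an antisense RNA and for 1 of a small nuclear RNA. The remaining pair was Uhg4, a host gene of small nucleolar RNAs, and a transcript without a symbol near Or45b. The summit was upstream of the start in 25 of 26, a position that the rule against gene bodies largely fixes. Their median signal was 86.7, against 83.7 for the 257 other members, and 10 of the 26 were in both replicate lists.

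Besides those near lncRNA:CR44339 and lncRNA:CR31044, the strongest of these was 311 bp upstream of lncRNA:CR45251, with 252 pooled, 122 in replicate 1 and 131 in replicate 2. One 268 bp upstream of lncRNA:CR45541, near Hex-A, had 250.05 pooled, 105 in replicate 1 and 142 in replicate 2. The summit 95 bp upstream of Uhg4 had 137 pooled, 60.4 in replicate 1 and 75.9 in replicate 2. Of the 2 thresholded replicate lists, only that of replicate 2 held it. A member 125 bp upstream of snRNA:U6:96Ac, a spliceosomal RNA gene, had 59.5 pooled, 22.3 in replicate 1 and 40.9 in replicate 2. U6 genes are transcribed by RNA polymerase III.

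Within 60 bp upstream of these noncoding starts, on their strand, TATAAA was found for 6 of the 26 members, which belong to 5 of 25 starts (interval 6.83 to 40.7%), beside 5.83% of all 4445 annotated noncoding starts. The 4445 include transfer RNA and other small RNA genes, while the 25 are mostly of long or antisense RNAs. The shares are thus of unlike sets, and a matched set was not tested. TATAAA began 33 bp upstream of lncRNA:CR31044, 30 bp upstream of lncRNA:CR43928 near Thor, the gene of a translation inhibitor, and 28 bp upstream of lncRNA:CR44365 near CG42808. For asRNA:CR45999 it was 21 bp and for lncRNA:CR44620 it was 56 bp. The starts are as annotated, and no transcript data were used.

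Members were nearest to 14 of the 459 genes in 11 lists of developmental, signalling, chromatin and housekeeping genes. In all 15 members (5.30%, 3.0 to 8.59%) had a listed gene as the nearest, beside 5.0% of windows and 6.26% of promoter peaks, so over all lists their share was that of the windows within counting error. The gap, pair-rule and segment polarity list of 29 genes had 4 members, nearest to slp2, ems (2 members) and ptc. That was 1.41% of members (0.386 to 3.58%), beside 1.01% of windows. The slp2 member, 4314 bp upstream, had 132 pooled, 43.5 in replicate 1 and 89.6 in replicate 2, and the 2 of ems had 96.9 and 67.4 pooled. The ptc member, near the gene for the Hedgehog receptor, had 95.7 pooled, 38.9 in replicate 1 and 56.6 in replicate 2.

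The list of dorsoventral and mesoderm genes had 3 members, near the T-box genes Doc2 (131 pooled) and mid (69.9) and the forkhead gene bin (114). Its share was 1.06% (0.219 to 3.07%), beside 0.878% of windows. The signalling list had ptc, the ligand genes upd1 (81.7) and Wnt6 (56.7), and the receptor gene fz (77.5). These 4 members were 1.41% (0.386 to 3.58%), beside 0.650% of windows. The list of 41 Polycomb, trithorax and insulator factors had 3 members, or 1.06% (0.219 to 3.07%), against 0.151% of windows and 0.925% of promoter peaks. They were nearest to Psc, ph-d (146 pooled, 58.1 in replicate 1, 94.5 in replicate 2) and lola (65.3). The ecdysone list had 1, near Eip75B (93.0), and the stress list 1, near the co-chaperone gene stv (110.1). Each was 0.353% of members (0.00895 to 1.95%), beside 0.330% of windows for the ecdysone list and 0.0495% for the stress list. Apart from the Polycomb list, whose share rests on 3 members, the windows' share lay within the interval of each list with members.

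No member had a nearest gene among the 16 Hox cluster genes, the 36 neural genes, the 86 cytoplasmic or 73 mitochondrial ribosomal protein genes, or the 62 genes of RNA polymerase II and general factors. A count of 0 of 283 allows a share of up to 1.30% for each of these lists (exact interval). The cytoplasmic ribosomal protein genes were nearest to 33 promoter peaks (2.35%) and to 0.857% of windows. The windows' share was 0.380% for the Hox list and 0.561% for the neural list. It was 0.490% for the mitochondrial ribosomal list and 0.0474% for the list of RNA polymerase II and general factors. Each of these shares lay below the 1.30% limit, so the counts of 0 did not stand apart from the windows.

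The bases at intergenic summits were poor in G+C, as at the other Taf1 peaks. The windows at the summits had a median of 35.3% G+C (quartiles 31.8 and 40.3%), against 34.3% at promoter peaks, 34.8% at intragenic peaks and 40.8% in the intergenic windows. In bins of 20 bp, G+C fell to 33.1% beside the summit of intergenic peaks, to 32.3% at promoter peaks and to 32.1% at intragenic peaks. Between 500 and 600 bp away it was 40.6%, 45.5% and 41.2%. A dip centred on the summit was thus seen in all 3 classes. In the bin at -110 bp, on the side of lower coordinates, G+C was 40.1% at intergenic, 39.9% at promoter and 42.2% at intragenic peaks. From the bin at -190 bp to that at -290 bp it rose from 40.9% to 44.0% at promoter peaks. At intergenic peaks those bins held 45.2% and 44.2%, and at intragenic peaks 43.6% and 44.0%. The sequences were not turned to the direction of the genes. With 250 bases on each side of the summit, the members' median was 40.5%, beside 40.7% for windows of that length, so over that length the members were not poorer in G+C.

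**Figure D4:**
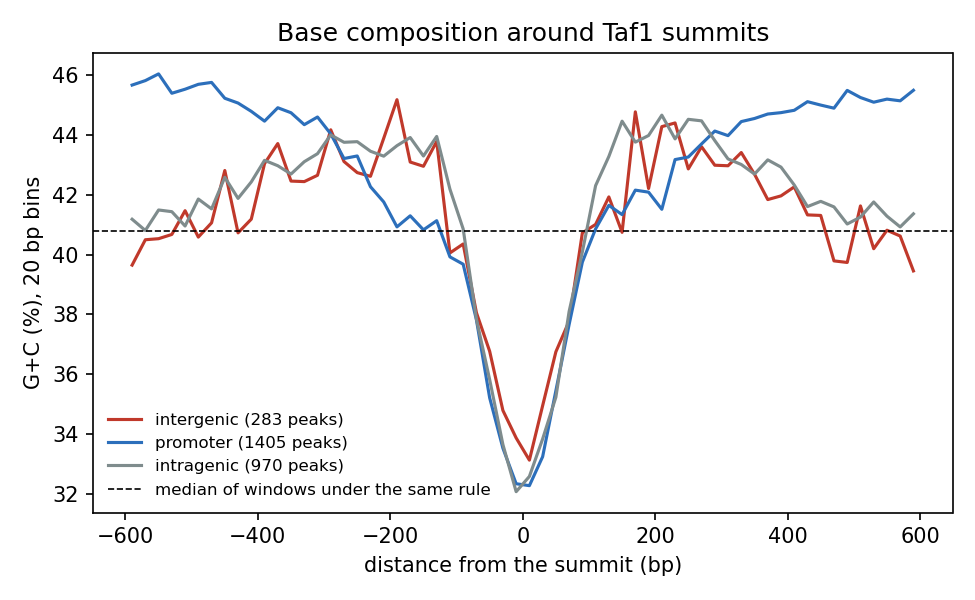
Percent G+C in 20 bp bins against distance from the summit in bp, for intergenic (red), promoter (blue) and intragenic (grey) peaks, with a dashed line at the median of the windows under the same rule (40.8%). All 3 curves fall to between 32.1 and 33.1% at the summit and lie above 39% at 200 bp.

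The letters TATAAA, searched on both strands like every motif here, were found in 108 of 283 intergenic sequences (38.2%, 32.5 to 44.1%), against 23.4% of windows. The share was 38.9% at promoter peaks and 35.8% at intragenic peaks, within the interval of the intergenic one. The motif is rich in A and T, and the base composition moved with it. Among members and windows with a G+C content between the members' quartiles, TATAAA was found in 40.8% of 152 members and 29.5% of windows. With 50 bases on each side of the summit it was found in 19.4% of members and 12.7% of windows of that length, and with 250 bases in 58.7% and 47.2%. A match of 6 letters is a description and not a bound site.

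The Initiator letters TCAGTT were found in 16.6% of members (12.5 to 21.5%), against 12.2% of windows, 11.9% of promoter peaks and 12.8% of intragenic peaks. The interval of the members overlapped those of both peak classes. In the conservative list the share was 13.8%, and without replicate 1 it was 12.6%, near that of the windows. An element bound by Dref, a factor of housekeeping promoters, with the letters TATCGATA, was found in 1.06% of members and 6.98% of promoter peaks. Ohler motif 7 was found in 2.12% of members and 9.11% of promoter peaks, and Ohler motif 1 in 0.353% and 1.78%. Windows held these motifs at 0.470%, 1.52% and 0.0306%. These shares rest on few members and moved with the libraries. Without replicate 1 the element of Dref and Ohler motif 7 were each found in 0.433% of members, and without replicate 2 in 0 and 0.870%, so neither stayed above the windows. Ohler motif 1 was found in no member without replicate 2.

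The E-box CAGCTG was found in 4.24% of members, against 9.32% of promoter peaks and 6.83% of windows. Letters of the element bound by Zelda, CAGGTAG, which acts early in the zygotic genome, were found in 2.12% of members, 0.427% of promoter peaks and 0.898% of windows. Without replicate 1 the Zelda letters were found in 1.30% of members and the E-box in 6.49%, and without replicate 2 the Zelda letters were found in 0.870%, so the differences from the windows did not hold in every list. The GAGA element GAGAGAG was found in 2.47% of members and 2.23% of windows, a run of 8 A in 13.8% and 10.5%, the repeat CACACACA in 2.83% and 3.80%, and the core GCCATTA bound by Pho in 1.77% and 3.15%. The Pho core was found in no member without replicate 2, and CACACACA in 1.38% of members of the conservative list and 1.74% without replicate 2. Ohler motif 6 was found in no member and in 0.302% of windows.

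**Figure D5:**
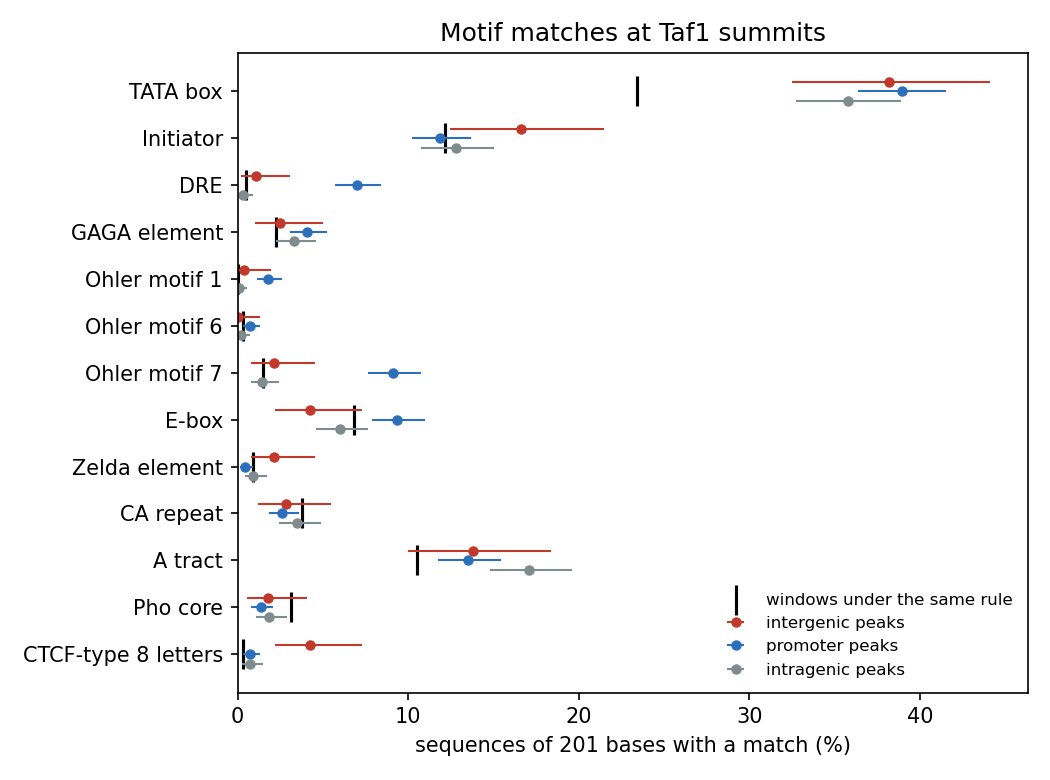
Percent of sequences (100 bases on each side of the summit) with each motif on either strand at intergenic (red), promoter (blue) and intragenic (grey) peaks, with 95% exact intervals, and in the windows under the same rule (black bars). TATAAA is near 38% at intergenic and promoter peaks and 23.4% in the windows, DRE and Ohler motif 7 are highest at promoter peaks, and the last line is the CTCF-type run AGGTGGCG, at 4.24% of intergenic peaks.

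Among 478 runs of 8 letters counted in at least 10 members, AGGTGGCG had the highest ratio to the windows. It was found in 12 members (4.24%, 2.21 to 7.29%), 0.333% of windows, 0.712% of promoter peaks (0.342 to 1.31%) and 0.722% of intragenic peaks (0.291 to 1.48%). The ratio to the windows was 12.7, the value for which the letters were picked from the 478. Since the letters were picked for their share at the members, the comparison with the other classes is a description too. With any letter at the third position, as AGNTGGCG, the shares were 8.13% of members, 2.42% of promoter peaks, 2.58% of intragenic peaks and 1.98% of windows.

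The letters lay near the summit, with a median distance of 25.5 bp and 9 of 12 within 40 bp. Each of the 12 members came from a separate locus, and their pooled signals ran from 58.4 to 211. The strongest, near CG10651 on 2L and 13839 bp from its TSS, had 211 pooled, 122 in replicate 1 and 88.2 in replicate 2. The member near nej, the gene for the CBP acetyltransferase, had 184 pooled, 94.8 in replicate 1 and 95.8 in replicate 2.

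One near soti had 158 pooled, 93.1 in replicate 1 and 60.4 in replicate 2, and that near jp had 124, 45.7 and 73.5. Replicate 1 was the higher at CG10651 and soti, replicate 2 at jp, and nej was level. Others lay near Atpalpha, which encodes a subunit of the sodium pump, and Esyt2. In all 4 of the 12 were in both replicate lists, where 33.9% of all members were. No data on CTCF binding were used.

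Other runs with high ratios overlapped this one or each other in part, such as TGGCGCCA in 11 members. CACTGTAC, which does not overlap it, was found in 13 members (4.59%) and 0.468% of windows, and also in 5.57% of intragenic peaks and 1.85% of promoter peaks. Among its members were the strongest summit upstream of chinmo, whose printed sequence holds these letters close to its right end, and that near CycB.

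The members that differed most between replicates were weak in one of them. The largest ratio in favour of replicate 2 was at CG4702, with 140 pooled, 21.6 in replicate 1 and 117 in replicate 2, followed by Rilpl (87.7 pooled, 21.4 and 69.2) and CG13912 (72.7 pooled, 15.6 and 49.4). In favour of replicate 1 they were 2 overlapping members near soti, which share the values 40.8 in replicate 1 and 11.0 in replicate 2, and a member near snsl (57.5 pooled, 42.7 and 13.3). Of all members, 9 had no match in the relaxed list of replicate 1, 7 none in that of replicate 2 and 1 of them in neither.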

How the data were processed

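Peaks were those deposited by the authors for 2 replicates of whole embryos, on dm6, per the labels, which give fragments of 200 to 800 bp after sonication. Neither aligner nor peak caller is given in the sources used here, read depth is unknown, and a control named in the labels was not used here. Members came from the larger pooled thresholded list, as named in the README texts deposited by the authors. The deposited signal has no stated scale and was used within 1 list or as a ratio at the same peaks. The deposited score ran from 830 to 1000. The deposited −log10 of the global irreproducible discovery rate was capped at 5. The 4 per-sample signal columns of the pooled ranked lists were not used.

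Genes came from Ensembl release 115 (18277 without transposable elements) and sequence from RefSeq Release 6. A member's replicate value is that of the strongest relaxed-list peak overlapping it by at least 1 bp. Windows were a full tiling, not a draw. No test was run across peaks, since they are not replicates.

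Members and lists were chosen with earlier results of these data known. Members named were the 20 strongest, up to 10 beyond 10 kb among the 60 strongest, groups of 3 or more within 5 kb, those at the limit, up to 4 per gene list, and the 3 highest and lowest replicate ratios; others were named after their values were seen. Alternatives changed the peak list, the position rule, the overlap, the window and the distance. The functions were tested on simulated data. Python 3.11.15, numpy 2.4.6, pandas 2.3.3, scipy 1.17.1 and matplotlib 3.10.9 were used.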

Additional observations from a re-analysis of the deposited data

Results flagged for a closer look

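The relaxed pooled list held 12729 peaks that met the position rule, of 60203. Of these, 296 had a global irreproducible discovery rate of 0.01 or less, and 13 of them overlapped no peak of the thresholded list, so they entered no comparison above. They stand out because the list used above does not hold them although they pass that rate. The strongest lay 1190 bp upstream of tara, with a signal of 317, and a weaker one lay 667 bp upstream of tara (65.6). Another 3 were near Rh5, with 165, 124 and 112, and 1 near ATbp, beside ribosomal RNA pseudogenes, had 203. No control sample was analysed, so no background level can be set beside them.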

How the results depend on the processing

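No paired analysis was possible because the study has 1 group. Under the other settings, the values of the 10 comparisons moved by less than a yardstick in 58 cases and by more in 28. For most, the yardstick was the difference between the values without replicate 1 and without replicate 2, over the square root of 2. Those values were among the cases counted, so the counts do not measure how stable a result is. The signal difference and replicate ratio kept their sign. Of the values for the other motifs, 91 moved by less than this yardstick and 44 by more. Those of DRE, the GAGA element, Ohler motif 1, Ohler motif 7 and Zelda fell below the windows' share in at least 1 setting, while that of the Initiator came near it. The intergenic share was 14.1% beyond 250 bp. The log2 signal difference was -0.088 in the conservative list, -0.082 beyond 250 bp, -0.10 for whole peaks outside genes, -0.14 without overlapping peaks, -0.10 with 1 member per locus, -0.16 in both-replicate peaks, and -0.18 to -0.17 when 1 replicate was left out. Median distance was 2890 bp with 1 member per locus and 3075 to 3365 bp when 1 replicate was left out. Members with a close neighbour were 25.8% at 2 kb, 38.5% at 10 kb, and 23.5 to 31.6% when 1 replicate was left out. Noncoding starts were near 6.01% at 250 bp, 14.8% at 1000 bp, 10.4% in both-replicate peaks, and 9.09 to 10.4% when 1 replicate was left out. Listed nearest genes came to 6.91% in the conservative list, 8.83% with both flanking genes, and 5.63 to 6.09% when 1 replicate was left out. Support in both replicates was 26.5% under reciprocal overlap and 42.9% for the conservative list. Median G+C was 32.7% with 50 and 40.5% with 250 bases on each side of the summit, where windows had 40.6% and 40.7%, and TATAAA 19.4% and 58.7%, where windows had 12.7% and 47.2%. AGGTGGCG stayed between 2.95 and 5.30%. Settings that use overlapping peaks, 1 member per locus or both-replicate peaks, and all those of AGGTGGCG, were added after seeing the data. The cause of these shifts was not tested. Depth is unknown, so a missing peak is not a lack of binding.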
